A study of Homo sapiens with 12 samples.

Results

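The genes described here encode collagens, laminins and other proteins of the extracellular matrix, with enzymes that modify or cross-link collagen. They were a list of 45 gene symbols, and every HT-12 v4 probe annotated to one of them was taken, 72 probes in all on an array that names 20046 genes. The list holds 15 collagen chains, 10 basement membrane genes, 14 matricellular genes and 6 cross-linkers. RNA came from MDA-MB231, an established human breast cancer cell line, in 6 groups of 2 arrays. Cells received compound 1 (EPZ004777) at 5 or 1 μM for 14 days, compound 2 (named Compound 55 in the labels) at 10 or 2 μM for 14 days, or 10 nM of DOT1L siRNA-1 by transfection for 7 days. The control was 0.1% DMSO for 14 days. Both compounds inhibit DOT1L, the methyltransferase of lysine 79 on histone H3, and siRNA-1 targets its mRNA. No control siRNA is among the 12 arrays, so the siRNA, its transfection and its shorter time cannot be told apart. The replicates are duplicate cultures, and p-values measure the spread between them.

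The extracellular matrix is the protein network that cells secrete and attach to. Fibrillar collagens such as types I and V form its fibres, and collagen VI makes beaded filaments from different chains that assemble together. Laminins are trimers of an alpha, a beta and a gamma chain, and with collagen IV, nidogens and perlecan they build the basement membrane, the sheet under epithelia that invading carcinoma cells must cross. Matricellular proteins sit in this network and signal to cells, and lysyl oxidases and lysyl hydroxylases set the cross-links that make collagen stiff.

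The promoters of 6 genes of the results are shown first. COL5A1, COL6A3, COL7A1 and TGFBI were higher with the inhibitors and with siRNA-1, and COL12A1 was lower with siRNA-1. LOX was higher with the inhibitors and lower with siRNA-1, though neither result held with each array left out in turn. The COL7A1 result over the pooled inhibitors did not hold so either, and COL6A3 was not detected in the control. COL8A1, COL6A1 and EFEMP1, also described below, had no matched promoter. Each line gives the 250 bases before the most upstream start listed by RefSeq in GRCh38.p14, read 5′ to 3′ on the gene's strand. Capitals mark 4 motifs searched on both strands. The TATA box was searched as TATAAA and the box bound by Sp1-family factors, called the GC box here, as GGGCGG. The box bound by NF-Y was searched by its own letters, CCAAT, and the site of AP-1 factors as TGANTCA.
COL5A1 (chr9:134641553-134641802, plus strand): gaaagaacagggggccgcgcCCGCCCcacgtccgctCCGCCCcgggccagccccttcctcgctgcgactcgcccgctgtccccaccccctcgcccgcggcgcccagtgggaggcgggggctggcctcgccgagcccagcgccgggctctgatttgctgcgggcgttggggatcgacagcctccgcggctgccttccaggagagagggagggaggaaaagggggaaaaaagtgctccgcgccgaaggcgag
COL6A3 (chr2:237414165-237414414, minus strand): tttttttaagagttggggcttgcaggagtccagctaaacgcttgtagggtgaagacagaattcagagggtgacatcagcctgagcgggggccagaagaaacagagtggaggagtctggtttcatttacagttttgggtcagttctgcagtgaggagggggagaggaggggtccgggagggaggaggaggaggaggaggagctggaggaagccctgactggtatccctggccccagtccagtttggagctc
COL7A1 (chr3:48595330-48595579, minus strand): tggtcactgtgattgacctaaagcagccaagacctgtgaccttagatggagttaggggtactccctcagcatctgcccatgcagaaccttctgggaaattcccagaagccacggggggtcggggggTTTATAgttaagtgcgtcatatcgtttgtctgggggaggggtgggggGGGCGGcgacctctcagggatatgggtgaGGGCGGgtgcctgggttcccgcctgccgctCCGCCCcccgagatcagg
TGFBI (chr5:136028738-136028987, plus strand): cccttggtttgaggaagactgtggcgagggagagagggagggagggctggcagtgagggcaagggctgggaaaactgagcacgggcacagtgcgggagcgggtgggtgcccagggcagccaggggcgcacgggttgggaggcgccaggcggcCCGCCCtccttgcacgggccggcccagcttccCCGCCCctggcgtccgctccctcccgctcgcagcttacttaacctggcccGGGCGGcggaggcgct
COL12A1 (chr6:75206054-75206303, minus strand): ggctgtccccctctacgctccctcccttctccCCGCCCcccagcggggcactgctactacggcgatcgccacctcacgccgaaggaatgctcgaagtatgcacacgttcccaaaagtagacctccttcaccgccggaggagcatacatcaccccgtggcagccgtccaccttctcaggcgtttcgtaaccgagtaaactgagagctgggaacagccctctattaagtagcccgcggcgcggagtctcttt
LOX (chr5:122078260-122078509, minus strand): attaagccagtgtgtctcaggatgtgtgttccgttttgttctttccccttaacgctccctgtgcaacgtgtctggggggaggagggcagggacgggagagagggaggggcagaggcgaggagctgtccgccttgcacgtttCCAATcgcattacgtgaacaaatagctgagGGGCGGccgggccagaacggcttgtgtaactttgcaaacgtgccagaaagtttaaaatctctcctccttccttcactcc
In these windows COL7A1 and TGFBI have 3 GC boxes each, COL5A1 has 2, and COL12A1 and LOX have 1 each. The COL6A3 window holds none of the 4 motifs. LOX has the only CCAAT box of the 6, 109 bases before its start. COL7A1 has the only TATAAA match, on the strand opposite to the gene and 124 bases before its start. RefSeq promoters were matched for 34 of the 45 genes, 22 of them tested. A GC box lay in 19 of these 22 windows, against 42.2% of 27305 promoters of the same length. A CCAAT box lay in 6 of 22, against 33.0% of all promoters, and a TATA box in 2 of 22, against 11.2%. No AP-1 match was found in the 22 windows, against 6.6% of all promoters. The 27305 promoters stand for all genes listed there, detected in these cells or not, whereas the 22 genes were all tested, so the shares are not for like sets. These matches describe the letters of the windows only. COL4A1 and COL4A2, the paired chains of collagen IV, lie head to head on chromosome 13 with starts 127 bases apart, so their 250-base promoter windows share 126 bases.

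Between 34.0% and 36.7% of probes were detected on an array, and those detected on all arrays had a median signal of 301.8 to 424.9. Replicate arrays correlated at r = 0.991 to 0.994 over the tested probes. The single DOT1L probe was detected on 4 of 12 arrays and on none of the siRNA-1 or control arrays, so it could not check the knockdown. The line markers VIM, CD44, CAV1, AXL and EGFR were detected on all arrays, whereas the luminal markers ESR1, PGR, FOXA1 and CDH1 were detected on none and EPCAM, KRT8, KRT18 and KRT19 on all. Of the leukocyte markers PTPRC, CD3E and ITGAM were detected on none and CD68 on all. In these bulk samples fewer cells of a type and less RNA per cell cannot be told apart. Of 5 fibroblast markers, PDGFRA, FAP, THY1 and COL3A1 were detected on no array, and the list's summed normalised signal was 135 to 172 with the inhibitors, 158 to 179 with siRNA-1 and 148 to 158 in the control. PDGFRB, the fifth, was detected on some arrays and not on others. Its fitted value was 0.63 ± 0.18 higher with siRNA-1 (log2, SE; limma adjusted p = 0.0463). Of 4 endothelial markers, VWF, CDH5 and KDR were detected on no array. The summed signal of these 4 was 166 to 214 with the inhibitors and 249.6 to 276 with siRNA-1, against 120.1 to 149 in the control. It followed PECAM1, whose fitted value was 1.85 ± 0.23 higher with siRNA-1 and 1.06 ± 0.18 higher over the inhibitors (log2, SE; adjusted p = 0.000314 and 0.00594). PECAM1 too was detected on some arrays only, so these values rest partly on undetected signals and may not be fold changes. Of 5 muscle markers CNN1, MYH11 and DES were detected on no array, and the list's summed signal was 391 to 424 with the inhibitors and 274 to 284 with siRNA-1, against 318 to 355 in the control. The 2 detected muscle markers parted, with ACTA2 0.88 ± 0.10 higher over the inhibitors (adjusted p = 0.000508) and TAGLN -0.64 ± 0.12 with siRNA-1 (adjusted p = 0.00528). Over the inhibitors EPCAM (0.56) and KRT19 (0.62) were also called higher and KRT18 (-0.57) lower, and with siRNA-1 AXL (-0.72) and EGFR (-0.86) were called lower. The part of these markers in the results below was not tested. The 2 control arrays differed more over the matrix genes than over the array: control replicate 2 was lower than control replicate 1 for 23 of 27 tested genes, with a median difference of -0.24 on the log2 scale, against -0.05 over all tested probes. For the genes described with full values, calls over the pooled inhibitors or with siRNA-1 that ended without that array are named below.

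Of the 45 genes, 27 passed the detection filter (both arrays of at least 1 group) and were tested, on 35 probes. Another 14 were not detected on any array, 3 were detected on 1 or 2 arrays only, and LAMA3 had no probe named in the annotation used here. COL1A1 and COL1A2, the chains of collagen I, and COL5A2, the usual partner of COL5A1, were not detected on any array, and COL6A2, a chain of collagen VI, was detected on 1 siRNA-1 array. Of the basement membrane genes, NID1, NID2 and HSPG2 (nidogens and perlecan) were not detected on any array and LAMA4 was detected on 2. Of the matricellular genes, SPARC, THBS2, POSTN, SPOCK1, BGN, LUM and FBN1 were not detected, and of the cross-linkers LOXL2 was not and LOXL1 was detected on 1 array. The 24 probes of these 17 genes had normalised signals of 19.7 to 54.8. Normalised signal here means the background-corrected bead signal with an offset of 16, scaled so that all arrays share the median of their commonly detected probes. A gene is represented by its brightest tested probe. "Called" means a limma adjusted p below 0.05 over all 17922 tested probes.

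The inhibitors were compared with the control to ask which matrix genes differ after 14 days of compound. The lists of genes were chosen with earlier results of these data known, and each gene counts by its brightest tested probe. The shares of all probes beside the counts are therefore a description and test nothing. With compound 1, 8 of 27 tested genes were called at 5 μM and 12 at 1 μM, against 2.17% and 5.28% of all tested probes (1.58% and 2.92% higher). With compound 2, 9 were called at 10 μM and 7 at 2 μM, against 3.20% and 3.62% of all probes (2.28% and 2.22% higher). All of these were higher, while over the array 55.2% to 72.8% of the calls in the 4 comparisons were higher (86.4% to 92.6% with all probes used for centring). The median change of the 27 genes was 0.36, 0.51, 0.42 and 0.39 on the log2 scale at compound 1 5 and 1 μM and compound 2 10 and 2 μM, against -0.06, -0.06, -0.04 and -0.06 over all probes. Over the 8 inhibitor arrays together, 14 of 27 were called higher and none lower, against 11.1% of probes called (5.40% higher). COL5A1, COL6A1, COL6A3, TGFBI and EFEMP1 were called higher in all 4 inhibitor groups and with siRNA-1. Without control replicate 2, TGFBI alone stayed called in all 4 inhibitor groups, EFEMP1 in 3, COL5A1 and COL6A1 at 1 μM of compound 1 and COL6A3 in none, while all 5 stayed called over the pooled inhibitors. COL6A3 entered the test through treated groups only and is part of the counts above. Without control replicate 2, 1 gene was called at compound 1 5 μM, 4 at 1 μM, 2 at each dose of compound 2 and 5 over the pooled inhibitors, while 0.346% to 0.946% of all probes were called in these comparisons.

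siRNA-1 gave 13 calls among the 27 genes, 10 higher and 3 lower, against 10.2% of all probes called (4.95% higher and 5.25% lower). The median was 0.17 on the log2 scale, against -0.05 over all probes. The genes lower with siRNA-1 were COL8A1, COL12A1 and LOX. With 1 of the compared arrays left out, this median ranged from -0.01 to 0.36 (log2). The doses were also compared within each compound. No gene of the 27, and no probe of the array, was called between 5 and 1 μM of compound 1 or between 10 and 2 μM of compound 2 in limma. At an unadjusted p below 0.05 there were 5 genes for compound 1 and 0 for compound 2, against 7.03% and 3.16% of all probes. For compound 1, 22 of 27 genes were lower at 5 than at 1 μM, with a median of -0.19 on the log2 scale, against 0.00 over all probes. COL4A2 had the lowest value, -0.72 with a 95% interval of -1.14 to -0.31 (limma adjusted p = 0.550). It was not called, in a comparison where no probe was. Size alone does not decide a call: COL5A1, at 0.64 with 5 μM of compound 1 against the control, was called (adjusted p = 0.0202).

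**Figure D1:**
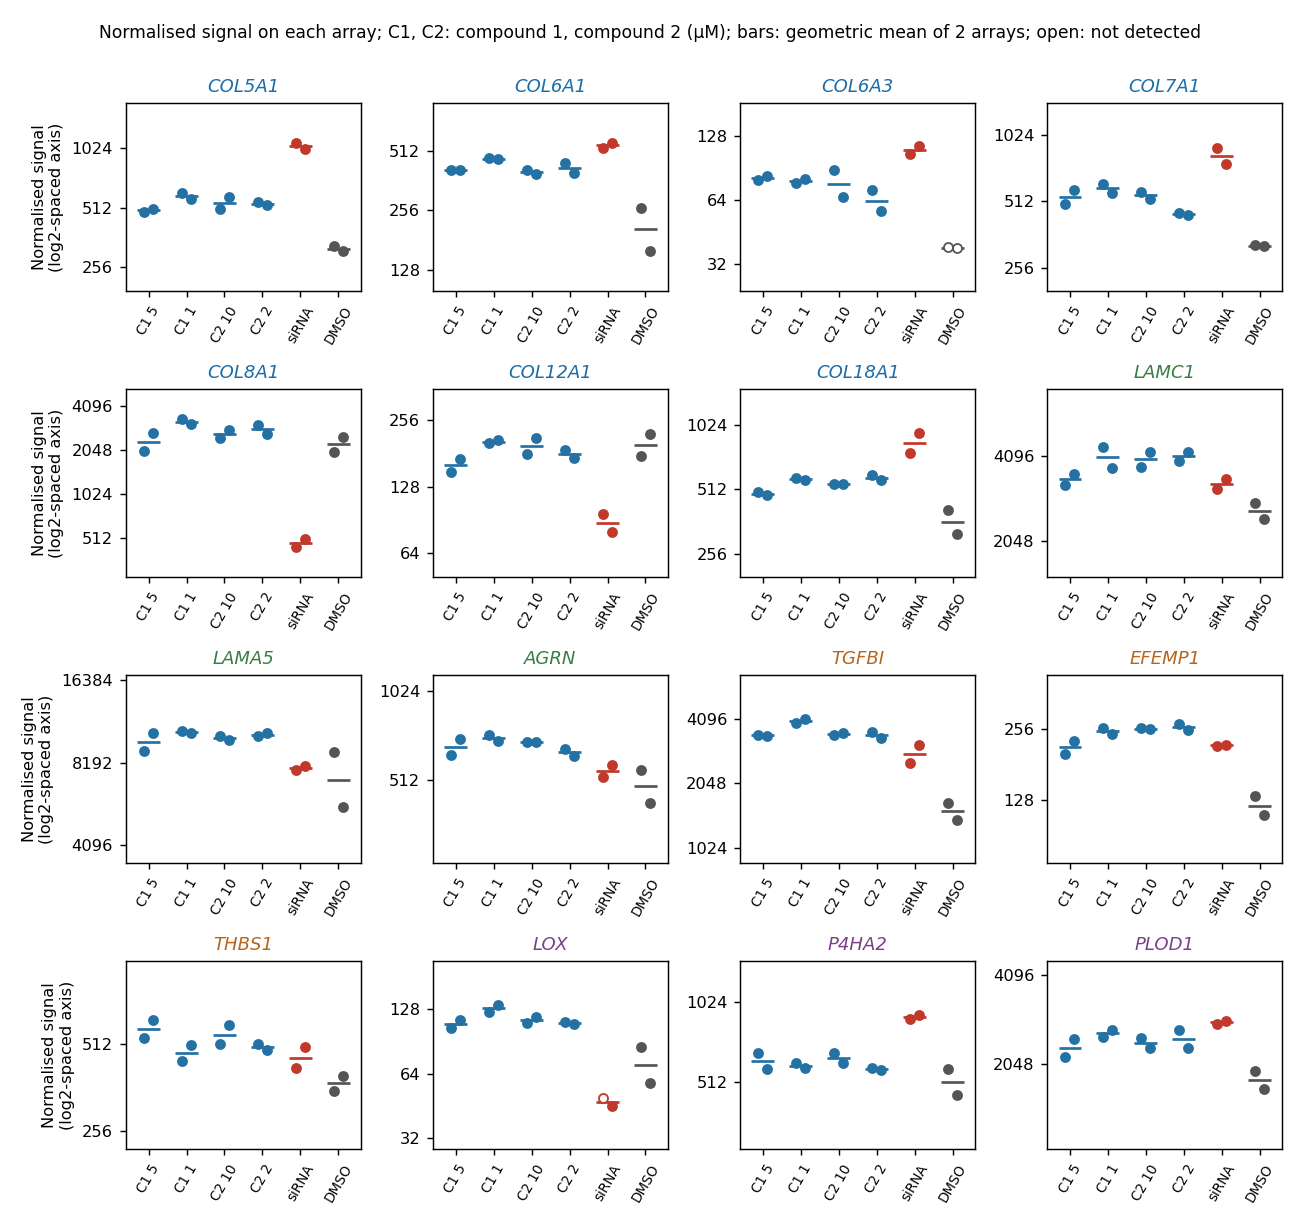
Normalised signal (log2-spaced vertical axes, each with its own range) on each of the 2 arrays of every group for 16 matrix genes, with 5 and 1 μM of compound 1, then 10 and 2 μM of compound 2, siRNA-1 and the DMSO control. Horizontal bars are geometric means, open points were not detected, and titles are coloured by collagens (blue), basement membrane (green), matricellular (brown) and cross-linkers (purple). siRNA-1 stands highest for COL5A1, COL6A1, COL6A3, COL7A1, COL18A1, P4HA2 and PLOD1 and lowest for COL8A1, COL12A1 and LOX.

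Among the collagens, 11 of 15 chains were tested. Over the pooled inhibitors 6 were called higher and 5 were not called, and with siRNA-1 6 were higher, 2 lower and 3 not called, against 11.1% and 10.2% of all probes called. The median of the 11 was 0.59 over the pooled inhibitors (0.53 with COL6A3 at its lower bound) and 0.44 with siRNA-1 (log2). COL5A1, the regulatory chain of collagen V that sets fibril diameter, gave normalised signals of 488 and 504 at 5 μM and 608 and 565 at 1 μM of compound 1, 506 and 579 at 10 μM and 544 and 525 at 2 μM of compound 2, and 1084 and 1017 with siRNA-1, against 326 and 309 in the control. Every treated array lay above both control arrays, and both siRNA-1 arrays above every inhibitor array. Over the pooled inhibitors COL5A1 rose by 0.76 ± 0.09 (log2, SE; limma adjusted p = 0.00096). Its difference between siRNA-1 and the inhibitors was 0.96 ± 0.09 (adjusted p = 4.9e-05). In the single groups the log2 changes were 0.64, 0.89, 0.77 and 0.75, and only that of compound 1 at 1 μM stayed called without control replicate 2.

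Collagen VI was measured by 2 of its chains. COL6A1 gave 411 and 408 at 5 μM and 469 and 466 at 1 μM of compound 1, 409.7 and 393 at 10 μM and 443 and 396 at 2 μM of compound 2, and 531 and 561 with siRNA-1, against 263 and 159 in the control. All treated arrays were above both control arrays, which themselves stood apart. Its log2 change was 1.05 ± 0.15 over the inhibitors and 1.42 ± 0.19 with siRNA-1 (SE; adjusted p = 0.00242 and 0.000555), and without control replicate 2 it was 0.69 and 1.06, both still called, while 3 of its 4 single-group inhibitor calls ended. COL6A3 gave 79.5 and 82.9 at 5 μM and 76.8 and 80.5 at 1 μM of compound 1, 88.7 and 66.0 at 10 μM and 71.5 and 56.6 at 2 μM of compound 2, and 106 and 115 with siRNA-1, against 38.4 and 38.0 in the control, where it was not detected. The change of COL6A3 is therefore a bound: at least 1.44-fold higher over the inhibitors and at least 2.12-fold higher with siRNA-1. The lowest detected signal stands in for the control there. Its calls (limma adjusted p = 0.00128 and 9.46e-05) come from the fit to the undetected control signals and do not test these bounds. Without control replicate 2 both calls held and all 4 single-group inhibitor calls ended. The second COL6A3 probe did not pass the detection filter.

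COL7A1, which forms the anchoring fibrils that tie basement membrane to the tissue below, gave 497 and 575 at 5 μM and 616 and 559.8 at 1 μM of compound 1, 565 and 526 at 10 μM and 453 and 446 at 2 μM of compound 2, and 893 and 758 with siRNA-1, against 324 and 322 in the control. The order of siRNA-1 over inhibitors over control held for every array. COL7A1 rose by 1.35 ± 0.13 with siRNA-1 and by 0.70 ± 0.10 over the inhibitors (log2, SE; adjusted p = 5.69e-05 and 0.0027), and its difference between siRNA-1 and the inhibitors was 0.64 ± 0.10 (adjusted p = 0.00132). At 2 μM of compound 2 it was 0.48 with adjusted p = 0.067, short of the threshold, and without control replicate 2 the inhibitor call was lost. COL18A1, whose C-terminal fragment is endostatin, gave 496 and 480.3 at 5 μM and 581 and 564 at 1 μM of compound 1, 544 and 544 at 10 μM and 598 and 565 at 2 μM of compound 2, and 755 and 945 with siRNA-1, against 409 and 318 in the control. No treated array overlapped the control. Its log2 change was 1.23 ± 0.15 with siRNA-1 and 0.60 ± 0.12 over the inhibitors (SE; adjusted p = 0.000276 and 0.0107). Without control replicate 2 the inhibitor value was 0.42 and not called, and the siRNA-1 value was 1.05 and still called. COL16A1, a fibril-associated collagen, was also called higher over the inhibitors (0.59 ± 0.10) and with siRNA-1 (0.44 ± 0.12, log2, SE; adjusted p = 0.00523 and 0.0455). The COL16A1 inhibitor call was lost without control replicate 2, and the siRNA-1 call without any 1 of the 4 arrays compared.

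COL8A1, a short-chain network collagen, behaved in the other direction. It gave 2018 and 2657 at 5 μM and 3330 and 3054 at 1 μM of compound 1, 2458 and 2778 at 10 μM and 3036 and 2638 at 2 μM of compound 2, and 444 and 509 with siRNA-1, against 1983 and 2512 in the control. Both siRNA-1 arrays were below all 10 others. Of the 8 inhibitor arrays 2 lay between the control arrays and 6 above them. COL8A1 fell by 2.23 on the log2 scale with siRNA-1 (SE 0.17, adjusted p = 1.35e-05), and its change of 0.28 ± 0.13 over the inhibitors was not called (adjusted p = 0.184). A second COL8A1 probe fell by 2.01 with siRNA-1 (SE 0.14, adjusted p = 8.13e-06), with 138 and 148 on those arrays against 517 and 642 in the control. COL12A1, a fibril-associated collagen, gave 149.8 and 169.9 at 5 μM and 202 and 207 at 1 μM of compound 1, 179 and 213 at 10 μM and 188 and 173 at 2 μM of compound 2, and 96.1 and 79.8 with siRNA-1, against 176 and 221 in the control. The siRNA-1 arrays were again below all others, and both arrays of compound 1 at 5 μM lay just under the control. COL12A1 fell by 1.17 with siRNA-1 (log2, SE 0.16, adjusted p = 0.000511), and its inhibitor value was -0.10 ± 0.12 (adjusted p = 0.625). The siRNA-1 calls of both genes held with any 1 of the 4 arrays compared left out. COL4A1, COL4A2 and the membrane collagen COL13A1 were called in no comparison with the control, with values of -0.44 to 0.38 over the 5 treated groups.

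**Figure D2:**
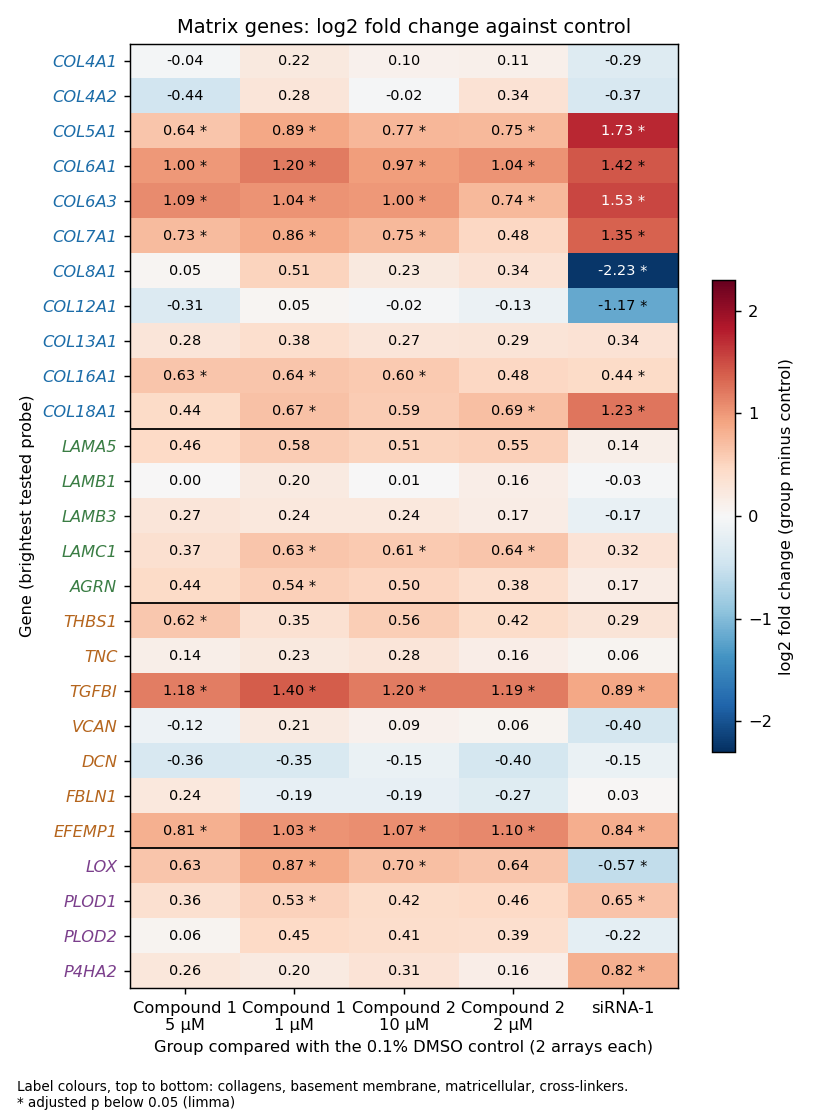
Log2 fold change against the DMSO control for the 27 tested genes (rows, in the order collagens, basement membrane, matricellular, cross-linkers) in the 5 treated groups (columns, 2 arrays each). Red is higher, blue is lower and an asterisk marks an adjusted p below 0.05. COL6A3 and VCAN were not detected in the control, so their cells are fitted values and not fold changes. TGFBI is starred in all 5 columns, and COL8A1 only under siRNA-1, at -2.23.

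Of the 5 tested basement membrane genes, 3 were called higher over the pooled inhibitors (LAMA5, LAMC1 and AGRN) and none with siRNA-1, and 0 to 2 were called in the single inhibitor groups, against 11.1% of all probes called over the inhibitors and 10.2% with siRNA-1. The median was 0.47 over the inhibitors and 0.14 with siRNA-1 (log2). LAMC1, the gamma chain shared by most laminins, gave 3227 and 3537 at 5 μM and 4395 and 3713 at 1 μM of compound 1, 3750 and 4226 at 10 μM and 3930 and 4235 at 2 μM of compound 2, and 3138 and 3393 with siRNA-1, against 2788 and 2448 in the control. All treated arrays lay above the control, with those of siRNA-1 and of compound 1 at 5 μM closest to it. Its log2 change was 0.56 ± 0.11 over the inhibitors (SE; adjusted p = 0.00955) and 0.32 ± 0.14 with siRNA-1 (adjusted p = 0.173). LAMA5, the alpha chain of the laminins that pair with it in epithelia, gave 9055 and 10522 at 5 μM and 10689 and 10502 at 1 μM of compound 1, 10279 and 9930 at 10 μM and 10207 and 10529 at 2 μM of compound 2, and 7689 and 7970 with siRNA-1, against 8936 and 5623 in the control. The inhibitor arrays were above both controls, by little for control replicate 1, and the siRNA-1 arrays lay between the controls. LAMA5 rose by 0.53 ± 0.14 over the inhibitors (log2, SE; adjusted p = 0.0388), and by 0.19 without control replicate 2, which was not called, and leaving out any of 7 of the 8 inhibitor arrays also ended the call. AGRN, the heparan sulphate proteoglycan agrin, gave 621 and 705 at 5 μM and 724 and 693 at 1 μM of compound 1, 688 and 689 at 10 μM and 653 and 617 at 2 μM of compound 2, and 523 and 575 with siRNA-1, against 553 and 428 in the control. Only the siRNA-1 arrays overlapped the control. AGRN rose by 0.47 ± 0.11 over the inhibitors (log2, SE; adjusted p = 0.0238), and by 0.29 without control replicate 2, which was not called. The LAMC1 inhibitor call was lost in the same way, at 0.47. LAMB1 and LAMB3, the beta chains, were called in no comparison with the control, with values of -0.17 to 0.27 over the 5 groups. A second, dimmer LAMB1 probe ranged from -0.28 to 0.56 and was not called either.

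Of the 7 tested matricellular genes, TGFBI and EFEMP1 were called higher in every inhibitor group and with siRNA-1, THBS1 at 5 μM of compound 1 and over the pooled inhibitors, and TNC, VCAN, DCN and FBLN1 in none by their brightest probe. Of all probes, 11.1% were called over the pooled inhibitors and 10.2% with siRNA-1. TGFBI, a TGF-beta-induced protein that links collagen to integrins, gave 3462 and 3410 at 5 μM and 3917 and 4102 at 1 μM of compound 1, 3459 and 3534 at 10 μM and 3575 and 3339 at 2 μM of compound 2, and 2560 and 3079 with siRNA-1, against 1659 and 1389 in the control. The inhibitor arrays lay above the siRNA-1 arrays, and these above the control. TGFBI rose by 1.24 ± 0.11 over the inhibitors and by 0.89 ± 0.13 with siRNA-1 (log2, SE; adjusted p = 9.08e-05 and 0.00135), and these calls and those of the 4 single groups held with any 1 of the arrays compared left out. EFEMP1, the fibulin-family glycoprotein fibulin-3, gave 199.9 and 228 at 5 μM and 257 and 242 at 1 μM of compound 1, 258 and 254 at 10 μM and 269 and 253 at 2 μM of compound 2, and 217 and 218 with siRNA-1, against 133 and 111 in the control. All 10 treated arrays were above both controls. EFEMP1 rose by 1.00 ± 0.10 over the inhibitors and by 0.84 ± 0.13 with siRNA-1 (log2, SE; adjusted p = 0.000269 and 0.00153). Its call at 5 μM of compound 1 ended without control replicate 2, and the others held.

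THBS1, thrombospondin-1, which activates latent TGF-beta and inhibits angiogenesis, gave 536 and 621 at 5 μM and 448 and 509.6 at 1 μM of compound 1, 514 and 594 at 10 μM and 511 and 489 at 2 μM of compound 2, and 423 and 499 with siRNA-1, against 353 and 398 in the control. Every treated array lay above the control, though by a small margin for siRNA-1. Its log2 change was 0.49 ± 0.11 over the inhibitors (SE; adjusted p = 0.0215) and 0.29 ± 0.14 with siRNA-1 (adjusted p = 0.239), and the inhibitor call was lost without control replicate 1, at 0.40, and without control replicate 2, at 0.57. The call at 5 μM of compound 1 was lost with any 1 of its 4 arrays left out. The 2 tested FBLN1 probes differed: the brighter one was 0.03 ± 0.14 with siRNA-1 (adjusted p = 0.924), and the dimmer one 0.65 ± 0.18 (adjusted p = 0.039). Both TNC probes stayed within -0.08 to 0.28 of the control in the 5 groups. DCN values were -0.40 to -0.15, not called. VCAN was not detected on the control or siRNA-1 arrays and was called in no comparison, so no fold is given.

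The class named cross-linkers also holds a prolyl hydroxylase gene, P4HA2, whose enzyme sets no cross-links. Of its 4 tested genes, LOX and PLOD1 were called higher over the pooled inhibitors, against 11.1% of all probes called. With siRNA-1 PLOD1 and P4HA2 were higher and LOX lower, against 10.2% of all probes called. LOX, the lysyl oxidase that starts collagen and elastin cross-linking, gave 104 and 114 at 5 μM and 124 and 134 at 1 μM of compound 1, 110.1 and 118 at 10 μM and 111 and 109 at 2 μM of compound 2, and 49.4 and 45.4 with siRNA-1, against 85.5 and 58.0 in the control. All inhibitor arrays were above both controls and both siRNA-1 arrays below them, and on the first siRNA-1 array LOX was not detected. LOX rose by 0.71 ± 0.13 over the inhibitors (log2, SE; adjusted p = 0.00817). With siRNA-1 it fell by 0.57 (SE 0.17, adjusted p = 0.0493), a call that 7 of the 11 alternatives ended, with adjusted p between 0.00668 and 0.269. Without control replicate 1 the siRNA-1 value was -0.29 and not called, and without control replicate 2 the inhibitor value was 0.43 and not called.

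P4HA2, a catalytic subunit of the prolyl hydroxylase that stabilises the collagen triple helix, gave 661 and 571 at 5 μM and 602 and 576 at 1 μM of compound 1, 661 and 605 at 10 μM and 578 and 568 at 2 μM of compound 2, and 885 and 915 with siRNA-1, against 573 and 456 in the control. Both siRNA-1 arrays were above all 10 others, while 2 of the 8 inhibitor arrays lay between the control arrays. P4HA2 rose by 0.82 ± 0.14 with siRNA-1 (log2, SE; adjusted p = 0.00283) and its inhibitor value was 0.23 ± 0.11 (adjusted p = 0.18). A second probe rose by 1.04 with siRNA-1 (adjusted p = 0.00181), and a further one, detected on the siRNA-1 arrays only, was not called against the control. PLOD1, a lysyl hydroxylase that prepares helical lysines for cross-linking, gave 2152 and 2487 at 5 μM and 2515 and 2668 at 1 μM of compound 1, 2496 and 2315 at 10 μM and 2654 and 2312 at 2 μM of compound 2, and 2799 and 2851 with siRNA-1, against 1934 and 1675 in the control. All treated arrays were above the control. PLOD1 rose by 0.65 ± 0.13 with siRNA-1 and by 0.44 ± 0.11 over the inhibitors (log2, SE; adjusted p = 0.00913 and 0.0236), and both calls were lost without control replicate 2, at 0.55 and 0.34. The siRNA-1 call was also lost without either siRNA-1 array. PLOD2, which hydroxylates telopeptide lysines, was called in no comparison with the control, with values of -0.22 to 0.45.

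siRNA-1 was then set directly against the 8 inhibitor arrays. The control values do not enter these differences, though the control arrays share in the filter, the centring and the estimate of the spread. Of 27 genes 5 were called higher with siRNA-1 and 7 lower, against 9.71% and 10.2% of all probes and 19.9% in both directions. The median was -0.16 on the log2 scale, against 0.01 over all probes. Higher with siRNA-1 were COL5A1, COL7A1, COL18A1, P4HA2 and COL6A3, 4 collagen chains and a collagen prolyl hydroxylase, by 0.56 to 0.96. Lower were COL8A1 by 2.52 (SE 0.13, adjusted p = 5.57e-07), LOX by 1.28 (SE 0.13, adjusted p = 6.55e-05) and COL12A1 by 1.07 (SE 0.12, adjusted p = 0.000142). PLOD2, LAMB3, COL4A1 and TGFBI were also lower, with log2 values of -0.55, -0.40, -0.39 and -0.36. A second PLOD2 probe was -0.79 ± 0.12 (adjusted p = 0.000878) and another -0.34 ± 0.26 (adjusted p = 0.404). All 5 basement membrane genes had negative values, from -0.40 to -0.13, with LAMB3 the only one called. For COL6A1 the difference was 0.37 with a 95% interval of 0.04 to 0.69 and an adjusted p of 0.111, and for EFEMP1 -0.16 with an interval of -0.39 to 0.06. Leaving out 1 siRNA-1 array ended the calls of COL18A1 and P4HA2 in 1 case each and those of COL6A3, COL4A1, LAMB3 and TGFBI in both, and the TGFBI call also ended without any of 7 of the 8 inhibitor arrays. That of PLOD2 ended without siRNA-1 replicate 1, whereas those of COL5A1, COL7A1, COL8A1, COL12A1 and LOX held with any 1 of the 10 arrays compared left out.

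**Figure D3:**
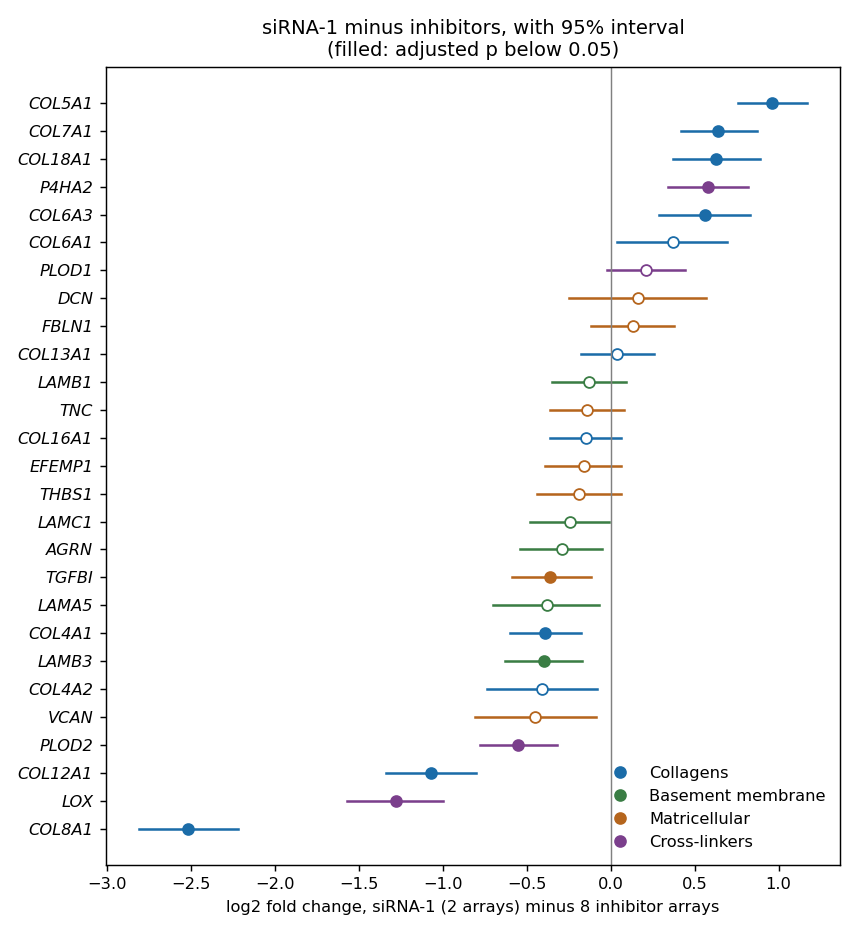
Log2 fold change of siRNA-1 (2 arrays) minus the 8 inhibitor arrays for the 27 tested genes, with 95% intervals from limma. Filled points have an adjusted p below 0.05 and colours give the class. COL5A1 is at the top at 0.96 and COL8A1 at the bottom at -2.52.

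The other genes of the matrix were followed in a second list of 85, of which 41 were tested. Over the pooled inhibitors 15 of 41 were called higher and 1 lower, and with siRNA-1 7 were higher and 5 lower, against 5.40% higher in all probes over the inhibitors and 4.95% higher and 5.25% lower with siRNA-1. The medians were 0.11 and -0.08 (log2), against -0.06 and -0.05 over all probes. Against the inhibitors directly, siRNA-1 had 1 of the 41 called higher and 13 lower, against 9.71% and 10.2% of all probes. The 6 with the largest called changes against the control were CCN3, LTBP2, LOXL4, FRAS1, P3H2 and CCN2. CCN3, a matricellular protein of the CCN family, gave 197 and 178 at 5 μM and 178 and 154 at 1 μM of compound 1, 174 and 176 at 10 μM and 149.9 and 125 at 2 μM of compound 2, and 127 and 139.5 with siRNA-1, against 55.2 and 65.1 in the control. It was higher on every treated array, by 1.46 ± 0.11 over the inhibitors and 1.15 ± 0.14 with siRNA-1 (log2, SE; adjusted p = 5.60e-05 and 0.000335). LTBP2, a latent TGF-beta binding protein family member, was likewise higher, by 1.20 ± 0.12 and 0.70 ± 0.15 (adjusted p = 0.000263 and 0.0138).

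LTBP2 was also lower with siRNA-1 than with the inhibitors (-0.51 ± 0.12, adjusted p = 0.0131), and its siRNA-1 call against the control ended without control replicate 2, at 0.58. The other 4 were called lower in the same direct comparison. LOXL4, a lysyl oxidase-like enzyme, gave 6464 to 7729 on the inhibitor arrays and 3063 and 3450 with siRNA-1, against 4201 and 2367 in the control. It was 1.20 ± 0.16 higher over the inhibitors (log2, SE; adjusted p = 0.00175), and its siRNA-1 arrays lay between the control arrays. The inhibitor value of LOXL4 was 0.79 without control replicate 2, still called. FRAS1, of the Fraser complex of basement membrane, gave 223 to 298 on the inhibitor arrays and 69.4 and 74.3 with siRNA-1, against 189 and 177 in the control. Like LOX, it had calls in opposite directions, 0.50 ± 0.10 over the inhibitors and -1.35 ± 0.13 with siRNA-1 (log2, SE; adjusted p = 0.0137 and 5.34e-05), and without control replicate 2 the inhibitor value was 0.45 and not called. CCN2, connective tissue growth factor, fell by 1.24 with siRNA-1 (SE 0.18, adjusted p = 0.000909), with 1857 and 1795 against 3442 and 5366 in the control, and its inhibitor value was 0.19 ± 0.14 (adjusted p = 0.394). P3H2, a prolyl 3-hydroxylase of basement membrane collagen, gave 625 and 643 with siRNA-1, against 1378 and 1768 in the control. P3H2 was the only one of the 41 called lower in both, with log2 values of -1.30 for siRNA-1 and -0.44 over the inhibitors, and without control replicate 2 the inhibitor value was -0.26 and not called.

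**Figure D4:**
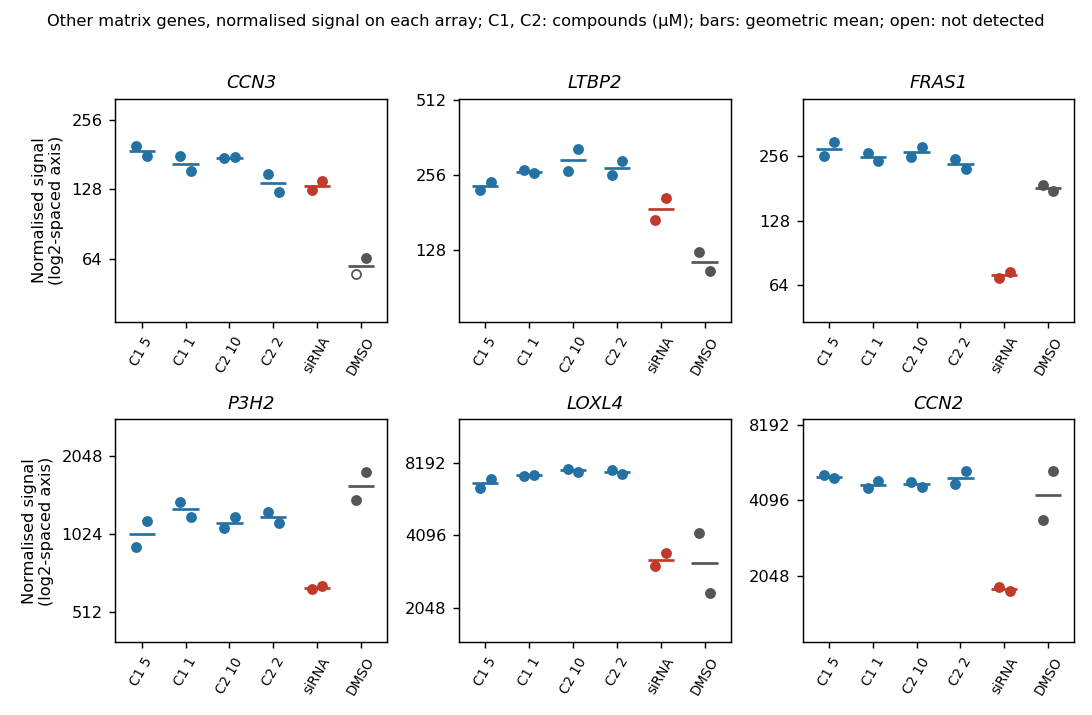
Normalised signal (log2-spaced vertical axes, each with its own range) on each array for 6 other matrix genes, for 5 and 1 μM of compound 1, then 10 and 2 μM of compound 2, siRNA-1 and the DMSO control; bars are geometric means of 2 arrays and the open point was not detected. FRAS1, P3H2 and CCN2 are lowest with siRNA-1, and CCN3 and LTBP2 are lowest in the control.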

How the data were processed

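RNA of 12 MDA-MB231 cultures was hybridised to Illumina HT-12 v4 arrays. The deposited intensity values are linear BeadStudio signals (version not given in the sources used here), background-subtracted and not normalised between arrays. The deposited detection p-values stand in another line order than the signals (rank correlation within a line -0.0041 to 0.0029) and were assigned by rank within each array. The log2 values of the authors' series matrix are log2 signals, with those below 1 set to 1, less the array median, and the 2 replicate columns of compound 2 at 10 μM are exchanged there. Of 47324 lines, 2 damaged ones were left out.

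Signals were corrected by normexp in limma 3.58.1 (R 4.3.3), with an offset of 16 and the negative control distribution estimated through the detection p-values. They were taken to log2 and each array was set to a common median over the 11809 probes whose detection p was below 0.01 on each of the 12 arrays. The 17922 probes with a detection p below 0.05 in both replicates of 1 group or more entered a single fit with a mean per group (6 residual and 5.59 prior degrees of freedom). The two-sided p-values were adjusted by Benjamini-Hochberg within each comparison. For a probe not detected in a group, the bound used the lowest detected signal of each array. The procedure was tested on simulated data. Gene names came from the platform annotation (30113 probes with 1 symbol, 8 with several and 17201 with none).

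The genes and lists were chosen with earlier results of these data known. Values on every array are given for genes called with a log2 change of at least 1 against the control, and for the largest changes of a class until 3 were reached. Of the other matrix genes, the 6 largest called changes are named. The alternatives changed the background correction, the centring, the normalization, the filter, the arrays in the fit, the probe per gene and the source of the values, added a replicate block, or left out each array.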

Additional observations from a re-analysis of the deposited data

Results flagged for a closer look

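For 3 genes, siRNA-1 differed from the pooled inhibitors by more than 1 on the log2 scale in a direct test of that difference. COL8A1 was -2.52, COL12A1 -1.07 and LOX -1.28 (siRNA-1 minus the 8 inhibitor arrays; limma adjusted p = 5.57e-07, 0.000142 and 6.55e-05). Each was lower on both siRNA-1 arrays than on all 8 inhibitor arrays, and each call held with any 1 of the 10 arrays compared left out. The siRNA-1 cultures differ from the inhibitor cultures also in time (7 against 14 days) and transfection, which cannot be told apart from the siRNA.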

How the results depend on the processing

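Of 75 calls of single genes, 28 held with each array of the compared groups left out and in every other setting, 43 held in every other setting, and none changed sign. Counts of genes called ranged, with 1 such array left out, over 1 to 10 at compound 1 5 μM, 3 to 14 at 1 μM, 2 to 12 at compound 2 10 μM, 2 to 9 at 2 μM, 10 to 11 with siRNA-1, 5 to 14 over the pooled inhibitors and 6 to 13 for siRNA-1 minus inhibitors, with 0 for both dose comparisons. The log2 medians ranged over 0.26 to 0.46, 0.37 to 0.58, 0.32 to 0.52, 0.27 to 0.48, -0.01 to 0.36, 0.29 to 0.47 and -0.21 to -0.15 in that order, and over -0.23 to -0.13 and -0.01 to 0.07 for the dose comparisons of compounds 1 and 2. The share of all probes called also moved between settings, so these counts and those below are not a result about these genes alone. Without control replicate 2 the counts were 1, 4, 2 and 2 in the inhibitor groups and 5 over the pooled inhibitors.

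With only the compared groups fitted, 2, 6, 3 and 2 genes were called in the inhibitor groups in that order, where fewer arrays estimate the spread. The series matrix gave 4 calls at compound 1 5 μM. Over the array it gave 175 probes higher and 40 lower there, against 283 and 106 in the fit described above. Its medians were 0.61 at 1 μM, 0.50 at compound 2 10 μM, 0.27 with siRNA-1 and -0.32 for compound 1 5 minus 1 μM. Centring on all probes, which moved the median of all probes over the pooled inhibitors to 0.04, against -0.06, and that of compound 2 10 minus 2 μM to -0.06, against 0.02, gave 12 calls at compound 2 2 μM and medians of 0.47 at compound 1 5 μM, 0.63 at 1 μM, 0.51 at compound 2 2 μM, 0.54 over the inhibitors and -0.06 for compound 2 10 minus 2 μM. With that centring 813 probes of the array were called higher and 65 lower at compound 2 2 μM, against 397 and 252. Quantile normalization gave medians of 0.49 at compound 2 10 μM and 0.30 with siRNA-1. The siRNA-1 median was 0.29 over the 23 genes with a probe detected on all 12 arrays and 0.29 with the median over a gene's probes. Without the detection filter, which adds 17 genes at background, the medians were 0.11, 0.22, 0.19 and 0.16 in the inhibitor groups, 0.01 with siRNA-1, 0.15 over the inhibitors, -0.02 for siRNA-1 minus inhibitors, and -0.11 and 0.10 for the dose comparisons. The causes were not tested beyond these constructions.

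Same-numbered replicates share only a number: their deviations correlated above 0.1 in 2 of 15 pairs of groups (-0.37 to 0.21). With a replicate block the counts were 8, 10, 8 and 7 in the inhibitor groups, 11 with siRNA-1, 14 over the inhibitors and 12 for siRNA-1 minus inhibitors. With 2 arrays a group, the median 95% half-width of a log2 difference was 0.34, and signals under 26.4 to 38.5 were not detected.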
